A study of Mus musculus with 6 samples.

Results

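Type IV collagen, laminins, nidogens and perlecan build the basement membrane, the thin matrix sheet that underlies epithelium and endothelium and wraps muscle cells. Laminin trimers of an alpha, a beta and a gamma chain polymerise on the cell surface, type IV collagen forms a second network, and nidogens and the proteoglycan perlecan link them. In the embryonic aorta this sheet lies between the endothelium and the mesenchyme that surrounds it. The 10 genes described here were chosen by symbol: Col4a1, Col4a2, Lama1, Lama2, Lama4, Lamb1, Lamc1, Nid1, Nid2 and Hspg2. Each had 1 of the 24973 probe sets of the array, and all 10 lay among the 12028 named genes whose mean over the arrays reached a brightness filter of 4.521 (log2), the median of all probe sets.

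RNA came from C57Bl/6 mouse embryos at embryonic day 11.5, when hematopoietic stem cells arise at the aorta. Ventral aortic tissue (3 arrays), cut from beneath the dorsal aorta, was compared with dorsal aortic tissue (3 arrays), which lies above the vessel roof and below the notochord. The embryos were untreated, and both tissues were cut from the same embryos by laser microdissection of unfixed frozen sections, so that each sample is a mixture of cell types. The series concerns the niche of hematopoietic stem cells under the aorta, and the comparison asks how the 2 sides of the vessel differ. Values are log2 expression levels, and the number of arrays limits their precision.

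None of the 10 basement membrane genes passed the test between ventral and dorsal tissue. In limma, with replicate number as a block and Benjamini-Hochberg adjustment over all 12028 genes, their adjusted p lay between 0.369 and 0.974, while 0.515% of all genes passed an adjusted p of 0.05 (0.308% higher and 0.208% lower in ventral tissue). At an unadjusted p under 0.05 there were 3 of the 10, all with positive log2 fold changes, against 10.7% of all genes in either direction and 5.6% with positive values. That count was 1 without replicate 1 and 1 without replicate 3. The median log2 fold change was 0.35 over the 10 genes and −0.01 over all genes tested, and 7 of the 10 values were positive, against 47.7% of all genes. The called gene with the smallest difference in the whole table differed by 2.5-fold, and the 10 standard errors were 0.17 to 0.29, so a modest difference in any of these genes could be missed. The genes were picked with earlier results known and encode partners in 1 structure, so their counts are a description and not independent evidence of a direction.

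The arrays of ventral and dorsal tissue did not overlap for 5 genes, Lama2, Lama4, Lamc1, Nid1 and Hspg2, with every ventral array above every dorsal one, as was so for 7.5% of all genes tested. No gene of the 10 showed the opposite separation, and 15.4% of all genes tested separated in either direction. The other genes, Lama1, Lamb1, Nid2, Col4a1 and Col4a2, overlapped. In 6 of the 10, the same 5 genes and Lamb1, the difference was positive in all 3 same-numbered pairs, against 15.3% of all genes.

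Start site sequences were available for 6 of the 10 genes in RefSeq (build GRCm38.p6). They are shown for Nid1 and Hspg2, whose ventral and dorsal arrays separated, and for Col4a2, whose start lies head to head with that of Col4a1. The sequence of Lama2, whose arrays also separated, is not shown. The Nid1 and Hspg2 stretches end before the outermost annotated start of the gene, at chr13:13437352-13437601 and chr4:137468553-137468750, both on the plus strand. The Col4a2 stretch is chr8:11312790-11312819 on the plus strand. Capitals mark the letters GGGCGG (the GC box) and CCCTCCCC (the CTC box, a motif known from the type IV collagen promoter) on either strand.
Nid1: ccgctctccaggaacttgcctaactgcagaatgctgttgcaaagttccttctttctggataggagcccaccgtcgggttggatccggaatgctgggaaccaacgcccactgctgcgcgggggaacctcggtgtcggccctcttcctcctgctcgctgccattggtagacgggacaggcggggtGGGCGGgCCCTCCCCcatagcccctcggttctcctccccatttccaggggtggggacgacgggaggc
Hspg2: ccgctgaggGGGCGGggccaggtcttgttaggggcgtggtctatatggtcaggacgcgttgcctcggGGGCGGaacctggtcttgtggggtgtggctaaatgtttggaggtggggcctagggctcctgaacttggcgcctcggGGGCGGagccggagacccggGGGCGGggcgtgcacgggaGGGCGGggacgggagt
Col4a2: ccCCCTCCCCtcggcagtgcgcGGGCGGcg

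In the windows from 250 bases before to 50 after a start, the GC box letters stood in all 6 members' windows and in 35.7% of all 32851 mouse windows in the table. The CTC box letters stood in those of Col4a1, Col4a2 and Nid1, against 10.8% of all windows. The windows of Col4a1 and Col4a2 run in opposite directions and share 78 bases. The shared bases hold the CTC box and the only GC box of the Col4a1 window, so these are not separate matches. GC content was 50.3% in the Lama2 window and 63.7% to 74.0% in the other members' windows, against a median of 52.7%. The shares of all windows were not matched for GC content. The letters CCAAT stood in 4 of the 6 windows, against 37.4%, and TATAAA in 0 of the 6, against 13.6%. All motifs were searched on both strands, and none of the 4 contains another. A match describes letters in a window and is not a binding site. Lama1, Lama4, Lamc1 and Nid2 had no entry.

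**Figure D1:**
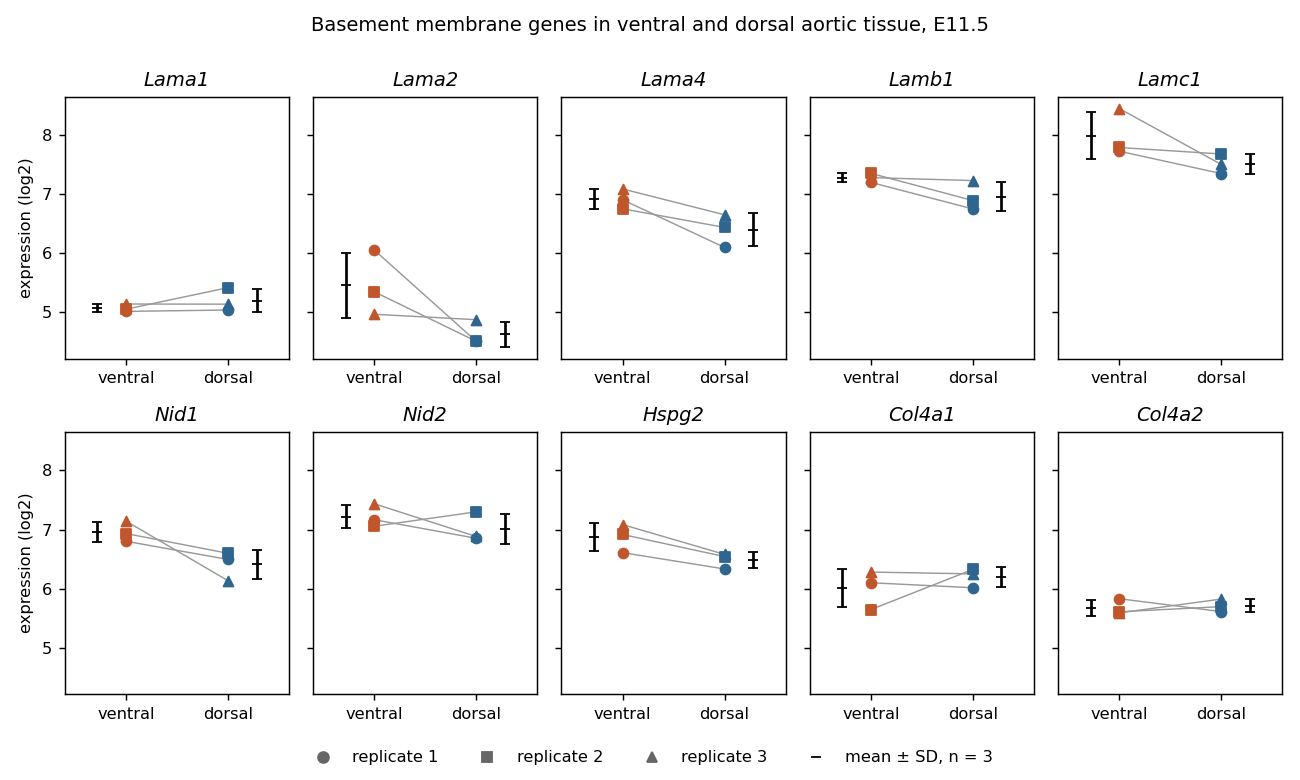
Expression (log2) of the 10 genes on each array, with ventral tissue left and dorsal tissue right; symbols mark replicates 1 to 3, lines join same-numbered arrays, and black marks give mean ± SD (n = 3). All ventral points of Lama2, Lama4, Lamc1, Nid1 and Hspg2 lie above all dorsal points, and the points of the other genes overlap.

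Among the laminin alpha chains, Lama2 and Lama4 had higher values on ventral arrays and Lama1 did not, although none passed the test. Lama2 encodes the alpha chain of muscle and peripheral nerve basement membranes, and loss of it causes muscular dystrophy in mice. Its level was 6.06, 5.35 and 4.97 in ventral tissue (replicates 1, 2 and 3), against 4.51, 4.51 and 4.88 in dorsal tissue. Ventral 1 was the highest array, ventral 3 stood just above dorsal 3, and 2 of the dorsal arrays were below the brightness filter. The means were 5.46 ± 0.55 in ventral and 4.63 ± 0.21 in dorsal tissue (SD, n = 3 each), and their difference was 0.82 ± 0.29 (SE) with a 95% interval of 0.13 to 1.52 (limma, adjusted p = 0.369). Because dorsal tissue was so near the filter, the difference of the deposited values gives no exact ratio of transcript. Within pairs it was 1.55 in pair 1, 0.84 in pair 2 and 0.09 in pair 3. It was 0.46 without replicate 1 and 1.19 without replicate 3, so its size rested on replicate 1.

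Lama4 encodes the alpha chain of endothelial basement membranes. Its level was 6.91, 6.75 and 7.09 in ventral tissue, against 6.10, 6.44 and 6.65 in dorsal tissue. The lowest ventral array was thus close to the highest dorsal one, but above it. Lama4 had a log2 fold change of 0.52 ± 0.19 (SE), with a 95% interval of 0.07 to 0.97, or 1.43-fold (limma, adjusted p = 0.389).

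Lama1 encodes the alpha chain of the earliest embryonic basement membranes. Its level was 5.02, 5.06 and 5.14 in ventral tissue, against 5.04, 5.42 and 5.14 in dorsal tissue. Dorsal 2 was the highest array and the other 5 lay close together. The log2 fold change was −0.13 ± 0.18, with an interval of −0.56 to 0.31 (limma, adjusted p = 0.877), which leaves room for a difference in either direction. Without replicate 2 it was −0.01.

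Lamb1 and Lamc1 encode the beta and gamma chains that pair with each of these alpha chains. Lamc1 was 7.73, 7.79 and 8.45 in ventral tissue, against 7.35, 7.68 and 7.50 in dorsal tissue. Ventral 3 stood well above all other arrays, while the gap between ventral 1 and dorsal 2 was small. For Lamc1 the log2 fold change was 0.48 ± 0.22, with an interval of −0.04 to 1.00 (limma, adjusted p = 0.506), and without replicate 3 it was 0.24.

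Lamb1 was 7.20, 7.35 and 7.28 in ventral tissue, against 6.75, 6.89 and 7.23 in dorsal tissue. The ventral arrays lay close together, and dorsal 3 was above ventral 1. Its log2 fold change was 0.32 ± 0.18, with an interval of −0.12 to 0.76 (limma, adjusted p = 0.619).

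**Figure D2:**
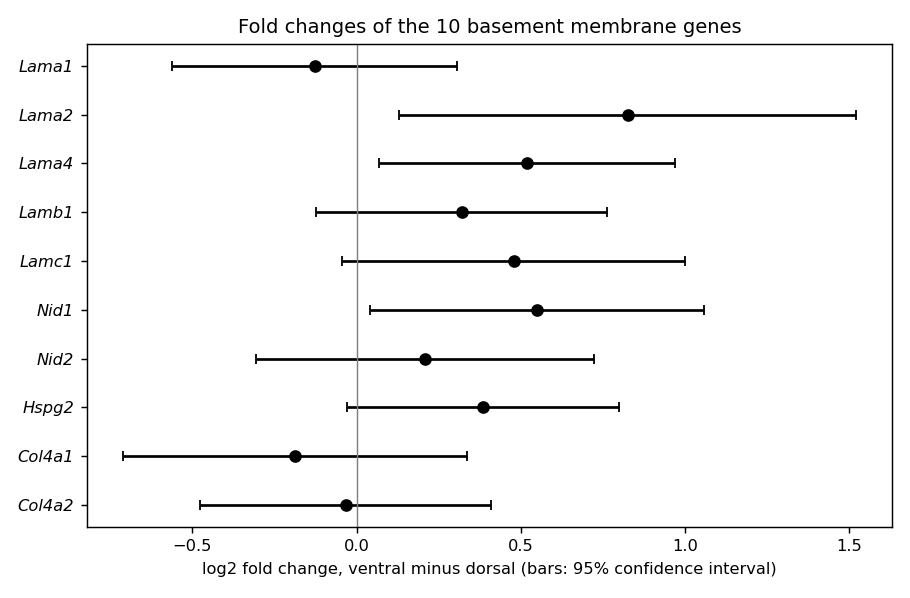
Log2 fold change of each gene, ventral minus dorsal, with its 95% confidence interval from limma (n = 3 arrays a tissue). The intervals of Lama2, Lama4 and Nid1 lie above 0 before adjustment for all genes tested, and the other 7 cross 0.

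Of the linkers of the laminin and collagen networks, Nid1 and Hspg2 separated between the tissues and Nid2 did not. Nid1 encodes nidogen-1, which binds the laminin gamma chain and type IV collagen. Its level was 6.80, 6.93 and 7.14 in ventral tissue, against 6.50, 6.60 and 6.14 in dorsal tissue. The pair numbered 3 held both the highest ventral and the lowest dorsal array. The means were 6.96 ± 0.17 in ventral and 6.41 ± 0.24 in dorsal tissue (SD, n = 3 each), and the log2 fold change was 0.55 ± 0.21 (SE), with an interval of 0.04 to 1.06 (limma, adjusted p = 0.432). Without replicate 3 the log2 fold change was 0.32.

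Nid2 encodes nidogen-2, a paralog with overlapping function in the mouse. Its level was 7.17, 7.06 and 7.44 in ventral tissue, against 6.85, 7.30 and 6.88 in dorsal tissue. Dorsal 2 exceeded both ventral 1 and ventral 2. Nid2 had a log2 fold change of 0.21 ± 0.21, with an interval of −0.31 to 0.72 (limma, adjusted p = 0.814). It was 0.43 without replicate 2, the pair whose difference was negative, and 0.03 without replicate 3. Whether the differences of Nid1 and Nid2 themselves differ was not tested.

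Hspg2 encodes perlecan, the heparan sulfate proteoglycan of basement membranes. Its level was 6.61, 6.92 and 7.08 in ventral tissue, against 6.33, 6.54 and 6.58 in dorsal tissue. The separation was narrow, with ventral 1 just above dorsal 3. The differences in pairs 1, 2 and 3 were 0.28, 0.37 and 0.50, and the log2 fold change was 0.38 ± 0.17 with an interval of −0.03 to 0.80 (limma, adjusted p = 0.499).

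**Figure D3:**
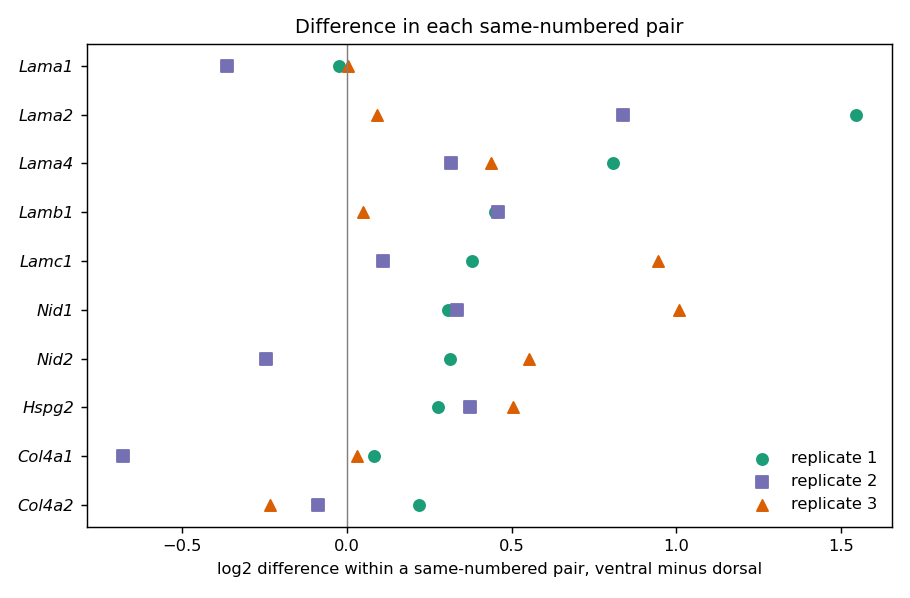
Log2 difference, ventral minus dorsal, within each same-numbered pair of arrays. All 3 pairs are positive for Lama2, Lama4, Lamb1, Lamc1, Nid1 and Hspg2, and the largest is that of Lama2 in pair 1 (1.55), while Col4a1 is lowest in pair 2 (−0.68).

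The type IV collagen genes gave values near 0. Col4a1 and Col4a2 encode the chains that together form the collagen trimer found in nearly all basement membranes. Col4a1 was 6.10, 5.65 and 6.28 in ventral tissue, against 6.02, 6.33 and 6.25 in dorsal tissue. Only ventral 2 stood apart, below all other arrays. The log2 fold change was −0.19 ± 0.22, with an interval of −0.71 to 0.33 (limma, adjusted p = 0.844), and without replicate 2 it turned to 0.06.

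Col4a2 was 5.83, 5.61 and 5.59 in ventral tissue, against 5.61, 5.70 and 5.83 in dorsal tissue. Both tissues covered nearly the same range. For Col4a2 the log2 fold change was −0.03 ± 0.18, with an interval of −0.48 to 0.41 (limma, adjusted p = 0.974). For Col4a1 the interval corresponds to 0.61-fold to 1.26-fold, and for Col4a2 to 0.72-fold to 1.33-fold (95%). Their starts lie 21 bases apart, and the pair differences of the 2 genes did not follow each other: they were 0.08, −0.68 and 0.03 for Col4a1 and 0.22, −0.09 and −0.23 for Col4a2 in pairs 1, 2 and 3. Over the 6 arrays Col4a1 and Col4a2 correlated by only 0.336 (Pearson's r), so likeness to their mean need not hold for each. The genes most like that mean were Clpx (Pearson's r = 0.997), Nsun5 (0.986), Pank3 (0.976), Ppp4r3a (0.972) and Map2k5 (0.964). These were picked as the highest of 11072 genes over 6 arrays from shared embryos, and the values are a description of likeness only.

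Partner genes of the basement membrane were read from 4 lists of 69 entries, of which 53 were bright enough to test. Of these, 2 passed, Adamts9 higher and Plod2 lower in ventral tissue, 3.77% of those tested against 0.515% of all genes. The lists were fixed with earlier results of these data known, so this share is a description and not evidence about the lists. The median log2 fold change of the 53 was 0.17, with 40 positive and 13 negative values. None of 13 further basement membrane proteins passed, 9 with positive and 4 with negative values. The lowest unadjusted p in limma there belonged to Fbln2, encoding fibulin-2 (log2 fold change 0.54 ± 0.18, adjusted p = 0.348), and Sparc, a collagen-binding matricellular protein (0.54 ± 0.19, adjusted p = 0.377). Sparc was 10.7, 10.6 and 10.8 in ventral tissue, against 10.2, 10.3 and 9.95 in dorsal tissue, with no overlap.

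The remaining chains of both networks were mostly dim. Col4a3, Col4a4, Col4a5 and Col4a6, which form the specialised collagen networks of kidney and other tissues, as well as Lama3, Lamb3 and Lamc3, did not reach the brightness filter, nor did Ntn4, Tinagl1 and Papln. The values of these 10 genes ran from 3.03 to 5.27, the highest of them Col4a5 on ventral 3, and they were not tested. Col4a6 was 4.56, 4.77 and 5.06 in ventral tissue, against 4.05, 4.30 and 4.22 in dorsal tissue. Tinagl1 was also higher on every ventral array. Lama3 was lower on every ventral array, but barely, with ventral 1 at 4.23 and dorsal 2 at 4.24. Among all genes tested, 15.4% separated in either direction. Of the chains bright enough to test, Lama5 had a log2 fold change of 0.26 ± 0.18 and Lamb2 one of 0.39 ± 0.22, neither passing (limma, adjusted p = 0.700 and 0.611).

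Of the 14 tested genes of the receptor list 0 passed in limma. An unadjusted p under 0.05 was found for 4, against 10.7% of all genes. Of these, 3 had positive values, against 5.6% of all genes, and 1 had a negative value. The negative one was Ddr2, a receptor tyrosine kinase for fibrillar collagens and not a specific receptor of basement membranes. It was 7.44, 6.32 and 5.23 in ventral tissue, against 8.02, 8.08 and 7.06 in dorsal tissue. Its tissues overlapped, since ventral 1 was above dorsal 3, yet all 3 pairs ran the same way. The log2 fold change was −1.39 ± 0.28 (limma, adjusted p = 0.133), and adjusted p was 0.426 without the block. Ddr2 did pass without replicate 1. Dag1, encoding the laminin receptor dystroglycan, had a log2 fold change of 0.68 ± 0.18 (limma, adjusted p = 0.239).

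Among 15 genes for folding, export and cross-linking of collagen, Plod2 alone passed. It encodes a lysyl hydroxylase and fell to 7.4, 6.7 and 7.0 in ventral tissue, against 9.7, 9.2 and 8.5 in dorsal tissue, which gave a log2 fold change of −2.11 ± 0.25 (limma, adjusted p = 0.0322). The collagen chaperone Serpinh1 (0.44 ± 0.21) and the peroxidasin gene Pxdn (0.29 ± 0.19), whose product cross-links type IV collagen, did not pass. The 11 tested proteases and inhibitors had 8 positive and 3 negative values, with a median log2 fold change of 0.65. At an unadjusted p under 0.05 in limma there were 5, all positive, against 5.6% of all genes. After adjustment only Adamts9 passed. This secreted metalloprotease was 8.10, 8.03 and 8.10 in ventral tissue, against 5.87, 6.48 and 5.58 in dorsal tissue, for a log2 fold change of 2.10 ± 0.23 (limma, adjusted p = 0.0258). Neither call held under all alternatives: with the block, Plod2 was lost without replicate 1 or replicate 2 and Adamts9 without replicate 1 or replicate 3. Both were lost without the brightness filter, and, in fits without the block, without ventral 2, ventral 3 or dorsal 1. Plod2 was also lost there without dorsal 2.

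**Figure D4:**
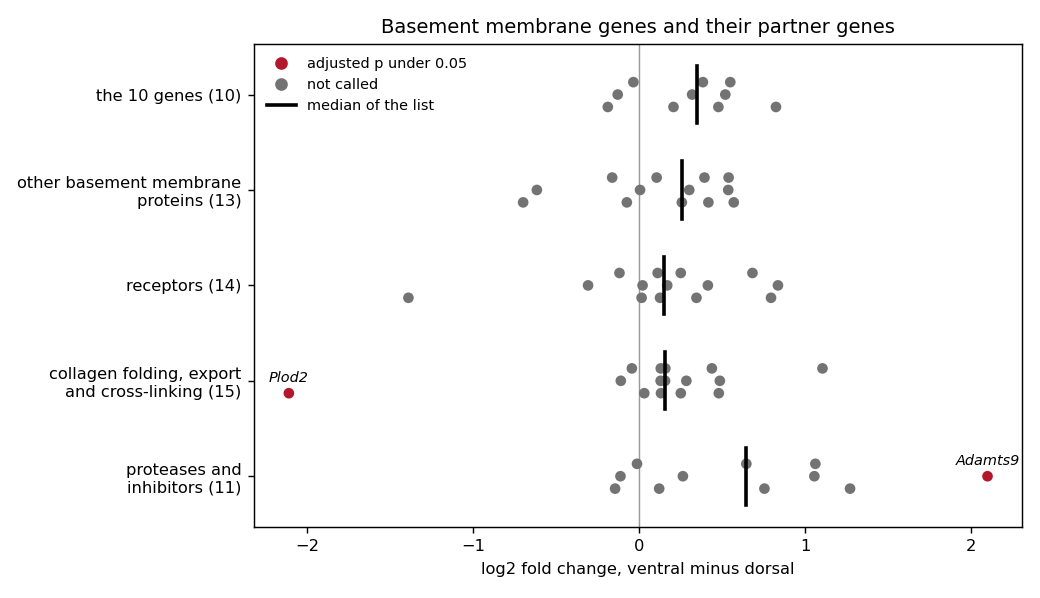
Log2 fold changes, ventral minus dorsal, of the 10 genes and of the tested genes of 4 partner lists (number tested in brackets); bars mark medians and red points genes past an adjusted p of 0.05 in limma. The 10 genes have a median of 0.35 and no red point, and the red points are Plod2 (−2.11) and Adamts9 (2.10).

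Markers of cell types that make basement membranes were read beside these genes. Each list was summarised by averaging its tested genes on an array, after each gene had been centred on its own 6-array mean. The 10 basement membrane genes lay at 0.05 to 0.25 on ventral and −0.29 to −0.06 on dorsal arrays. Endothelial markers had 11 of 14 positive log2 fold changes and 0 calls in limma, with levels of 0.01 to 0.29 in ventral and −0.41 to 0.26 in dorsal tissue. Smooth muscle and pericyte markers had 12 of 13 positive values and 1 call (Rgs5, which had an adjusted p of 0.0732 without the block), with levels of −0.03 to 1.03 in ventral and −0.83 to −0.08 in dorsal tissue, which did not overlap. The endothelial levels did overlap. At an unadjusted p under 0.05 in limma, 3 endothelial genes were positive and 1 was negative, against 10.7% of all genes. Their log2 fold changes were 1.00 (Kdr), 0.70 (Sox18), 0.70 (Cldn5) and −0.80 (the endothelial factor gene Fli1). Both Pecam1 and Cdh5, which define endothelium, were above the filter in both tissues. Their log2 fold changes were 0.58 ± 0.27 and 0.55 ± 0.24, and neither passed (limma, adjusted p = 0.524 and 0.497).

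Markers of coelomic epithelium, mesenchyme and sclerotome also gave levels that did not overlap between the tissues, as did the erythroid markers described below. Coelomic epithelium and mesothelium had 8 of 8 positive values and 1 call (Tcf21), with levels of 0.48 to 1.09 in ventral and −0.82 to −0.65 in dorsal tissue. Mesenchyme had 8 of 10 positive values and 2 calls (Dcn and again Tcf21), with levels of 0.32 to 1.00 in ventral and −0.63 to −0.48 in dorsal tissue. Sclerotome and early cartilage markers had 10 of 10 negative values, with levels of −0.91 to −0.61 in ventral and 0.47 to 0.98 in dorsal tissue, and Pax1, Col2a1 and Chad passed in limma. Tcf21 (dorsal mean 3.95) and Chad (ventral mean 3.75) were below the filter of 4.521 in the tissue where they were low. They reached it only through the other tissue, and both count in the levels of their lists. The part of these cell types in the values of the basement membrane genes was not tested, and in such mixed samples fewer cells of a type and less RNA per cell cannot be told apart.

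**Figure D5:**
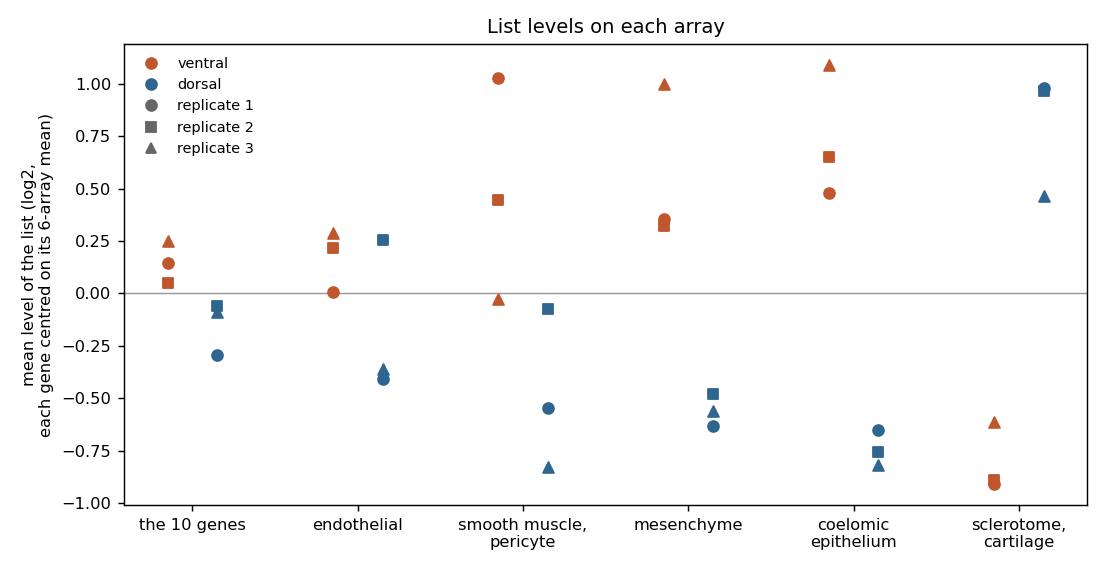
Mean level of the 10 genes and of 5 marker lists on each array (log2, each gene centred on its 6-array mean), ventral left of dorsal in each list; symbols mark replicates 1 to 3. Ventral arrays lie above dorsal arrays for the 10 genes, smooth muscle and pericyte markers, mesenchyme and coelomic epithelium, and below them for sclerotome and cartilage, and endothelial levels overlap, with dorsal 2 (0.26) above ventral 1 and ventral 2.

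Blood cells and other epithelia were read from further lists. Macrophage markers had 11 of 11 positive and erythroid markers 8 of 8 negative log2 fold changes, with medians of 0.36 and −0.38 and 0 calls in either list in limma. At an unadjusted p under 0.05 in limma there were 3 of the 11 macrophage and 4 of the 8 erythroid genes, against 10.7% of all genes. Erythroid levels were −0.42 to −0.05 in ventral and 0.13 to 0.31 in dorsal tissue and did not overlap, while macrophage levels overlapped. Mesonephros and nephric duct epithelium, which also rests on basement membrane, had 4 genes bright enough to test, 2 with positive and 2 with negative values. Pax2, Pax8, Lhx1, Cdh16 and Emx2 of this list did not reach the filter as a mean over the arrays. Emx2 was nevertheless 5.01, 3.66 and 7.98 in dorsal tissue, against 3.62, 3.23 and 3.24 in ventral tissue, and was not tested. The notochord list had 3 of 4 positive values, but these were Krt8, Krt18 and Krt19, which also stand in the coelomic epithelium list. Shh, the other notochord gene tested, had a log2 fold change of −0.36, and Noto, Foxa2 and Chrd did not reach the filter. The neural crest list had 1 of 3 positive values and skeletal muscle 2 of 4, and none of the genes of these lists passed in limma.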

How the data were processed

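The deposited values are log2 levels of each probe set on each array, made by the authors with Affymetrix Expression Console and RMA per the submitters' processing notes (background correction, quantile normalization, summary of probes). Software versions, the grouping of probes and the build are not stated in the sources used here. Per the labels' protocols, 200 to 1000 pg of RNA was amplified by an isothermal method before labelling, which can distort ratios of weak to strong transcripts. Probe sets were named from the platform table, updated by Entrez identifier: 24015 of 24973 had 1 symbol, 0 several, and 958 are unnamed here.

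Ventral minus dorsal was fitted with limma 3.58.1 under R 4.3.3 (lmFit, then eBayes, two-sided), with replicate number as a fixed block, over 12028 genes at or above the filter of 4.521. The script was tested on simulated data. Pairing comes from the labels, which say that both tissues came from the same embryos, not that a number marks an embryo. Deviations from tissue means correlated by 0.0992, 0.0763 and 0.226 for same-numbered arrays 1, 2 and 3, and by −0.153 to 0.0805 for differently numbered ones. Ventral 1 with dorsal 2 (0.0805) exceeded the pair numbered 2, so these values support the pairing only weakly. If arrays pooled embryos, p-values measure the spread between pools. An exact permutation test of 3 against 3 arrays cannot go below p = 0.1 and was not used.

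The members and lists were chosen with earlier results of these data known. All 10 genes are named. Of each partner list, genes past the threshold are named, or otherwise the 2 with the lowest unadjusted p. Lama5, Lamb2, Serpinh1, Pxdn, and the sequences to print, were picked for their role or after values were seen. Promoter windows are from RefSeq.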

Additional observations from a re-analysis of the deposited data

How the results depend on the processing

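Over 15 alternatives, 0 of the 10 basement membrane genes passed in limma in either direction, with the lowest adjusted p at 0.205 (Lama2, without replicate 3). Lama2, Lama4, Lamb1, Lamc1, Nid1, Nid2 and Hspg2 had positive log2 fold changes, and Lama1 negative ones, under every alternative that gave a value. Lama2 fell below the filter at the 60th percentile and has no value there. Without the replicate block the log2 fold changes are the same by construction, and the lowest adjusted p of the 10 was 0.364. Dropping the block changed no call of a member. The direction of the type IV collagen genes was not stable. Leaving out a pair or an array moved Col4a1 between −0.324 and 0.0572 and Col4a2 between −0.160 and 0.0659, and the median of the 10 genes between 0.262 and 0.437. It also moved the count of all genes called between 8 and 74 higher and between 4 and 30 lower in ventral tissue, and that of partner genes between 0 and 1 in each direction. Without the brightness filter 8 genes were higher and 2 lower, with 0 partner genes in either direction. The filter at the 60th percentile gave 16 lower genes, and eBayes with trend and robust set gave 38. Shifting arrays to the same median or cyclic loess changed no call of the 10 genes. The cause of these shifts was not tested.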
